A study of Bos taurus with 10 samples.

Results

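Caseins and whey proteins, the proteins that make up nearly all of the protein in cow's milk, were followed in mammary tissue at the level of their transcripts. The group held 7 genes: the caseins CSN1S1, CSN1S2, CSN2 and CSN3, and the whey proteins LALBA (α-lactalbumin), PAEP (β-lactoglobulin) and GLYCAM1 (lactophorin). Its members on the array were all probe sets whose single gene symbol in the platform annotation is one of these, 11 probe sets out of 24128. A probe set is a group of short probes against 1 transcript, and its signal is given here as the log2 value deposited for each array.

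Mammary tissue of 10 lactating German Holstein Frisian cows in their first lactation was compared, with 1 array per cow and 5 cows per group. All cows were oestrus-synchronized with cloprostenol and milked out with oxytocin beforehand. The neighboring group was tissue of glands that received no bacteria, 24 h after another gland of the same udder was given a dose of about 500 CFU of the mastitis strain E. coli 1303 (in 2 ml of saline). Per the methods, 4 of these samples were pools of a saline-treated and an untreated gland and neighboring 4 was a single untreated gland. The control group was tissue of healthy cows that were not inoculated, from which some samples were pools of a pair of glands and others a single one. The question was how far milk protein transcripts differ between glands remote from the infection and glands of healthy animals.

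Caseins and whey proteins are made by the luminal epithelial cells that line the alveoli. Prolactin acting through JAK2 and STAT5, together with glucocorticoids and insulin, switches their genes on and keeps them on during lactation. The caseins form micelles that carry calcium and phosphate: CSN1S1, CSN1S2 and CSN2 bind calcium through their phosphoserines, and CSN3 covers the micelle and keeps it in suspension. α-Lactalbumin is the partner of the galactosyltransferase B4GALT1 in making lactose, β-lactoglobulin is a lipocalin that is the main whey protein of ruminants, and lactophorin is a glycoprotein of whey. In mastitis, milk protein synthesis is known to fall in the inflamed gland.

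Array medians ran from 6.25 to 6.27. Quantile normalization holds them close, so they do not show how alike the arrays were beforehand. Following the study, neighboring 5, set aside there as a biological outlier, and control 3, set aside as a technical outlier, stayed out of the fit, which held 8 arrays, and every member is also given on all 10. The neighboring arrays in the fit were lower than the control arrays in the bacterial and phage RNAs that are added before hybridization. The mean signal of these controls was 9.92 to 10.14 on the 4 neighboring arrays and 10.17 to 10.59 on the 4 control arrays, and 10.40 on neighboring 5 and 10.34 on control 3. In the fit they thus did not overlap between the groups. A fit with them as a covariate cannot fully tell their part from that of the group. Differences between the 3′ and 5′ probe sets of GAPDH, a sign of RNA integrity, were 0.660 to 0.796 in the neighboring group and 0.701 to 0.938 in the controls.

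Milk protein probe sets formed the top of the range of every array. The 9 brightest probe sets on each of the 10 arrays were all members, 2 of CSN2, 3 of GLYCAM1 and 1 each of CSN1S2, CSN3, LALBA and PAEP. Their mean signals began at 14.22, and the next brightest transcript outside the group, the translation elongation factor EEF1A1, had 13.71. The probe set of CSN1S1 had ranks 10 to 22. A rank reflects how well the probes of a set bind as well as the amount of transcript, so it gives no order of amounts between these genes.

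The highest value of an array was CSN2 on 9 arrays and PAEP on control 4. These highest values, which the normalization also holds close, ran from 14.65 on control 1 to 14.86 on neighboring 5. Between 9 and 12 probe sets per array lay within 1 log2 step of the top. Of the member sets, the brighter CSN2 set lay at most 0.083 and PAEP at most 0.175 below it, the second CSN2 set 0.372 to 0.587, CSN3 0.083 to 0.364, CSN1S2 0.262 to 0.561, LALBA 0.273 to 0.560 and CSN1S1 0.984 to 1.34. Probe sets of GLYCAM1 lay 0.258 to 0.705 below it. All bright probe sets of the group but that of CSN1S1 were thus recorded within 0.705 of the top of a range that ran from 0.968 to 14.86.

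**Figure D1:**
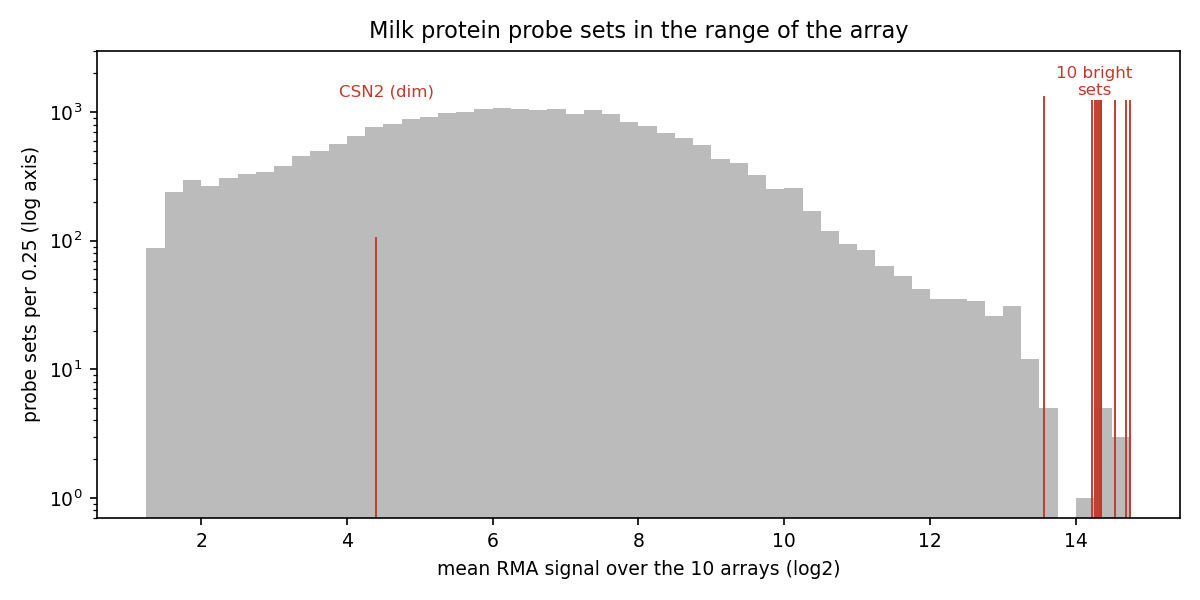
Number of probe sets, on a log axis, per 0.25 of mean signal over the 10 arrays (log2), with the 11 member probe sets as red lines. The 10 bright sets sit at 13.57 to 14.74, 9 of them beyond every other transcript, and the dim CSN2 set sits in the lower part of the range.

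One probe set of CSN2 behaved differently. Its signal was 3.96, 4.35, 4.16, 4.03 and 4.49 on neighboring 1 to 5 and 4.74, 4.81, 4.44, 4.03 and 5.001 on control 1 to 5. It was among the dimmest of the array, at percentiles 16.1 to 27.6, and on average 10.34 log2 steps under the brightest CSN2 probe set. The annotation ties both to the same sequence record, but which strand the probes of each match was not checked. The values of the dim set may therefore not report the CSN2 transcript. In the fit, control 4 lay within the neighboring range and the other controls above it. The mean difference was −0.52 ± 0.19 (SE, limma adjusted p = 0.073, fitted without a filter on dim probe sets, where 20.3% of 24016 probe sets were called) on 8 arrays and −0.41 on 10 (adjusted p = 0.15). Without control 4 the difference was −0.72 with an adjusted p of 0.0067 by limma. With the added hybridization RNAs as a covariate it had the opposite sign, 0.095, with a limma adjusted p of 0.93. That covariate did not overlap between the groups of the fit.

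Among the caseins, CSN2 (β-casein) had the highest signal. Its brighter probe set read 14.77, 14.74, 14.76, 14.80 and 14.86 on neighboring 1 to 5 and 14.65, 14.73, 14.79, 14.60 and 14.73 on control 1 to 5. All 4 neighboring arrays of the fit lay above all 4 controls, while control 3, outside the fit, lay within the neighboring range. The group means were 14.77 ± 0.02 and 14.68 ± 0.06 (SD, n = 4), and the difference was 0.09 ± 0.08 (SE, limma adjusted p = 0.43). The second CSN2 probe set read 14.23 to 14.28 in the neighboring group and 14.24 to 14.33 in the controls, with a difference of −0.02 ± 0.08 (limma adjusted p = 0.86). The small differences of these CSN2 sets were opposite in sign.

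CSN1S1 (αs1-casein) read 13.58, 13.54, 13.42, 13.59 and 13.53 on neighboring 1 to 5 and 13.64, 13.56, 13.55, 13.70 and 13.58 on control 1 to 5. The groups overlapped, with neighboring 3 lowest and control 4 highest, and the difference was −0.09 ± 0.09 (SE, limma adjusted p = 0.47). CSN1S2 (αs2-casein) read 14.28 to 14.36 in the neighboring group and 14.35 to 14.43 in the controls, a difference of −0.06 ± 0.08 (limma adjusted p = 0.60). CSN3 (κ-casein) read 14.48 to 14.56 against 14.52 to 14.58, with a difference of −0.03 ± 0.08 (limma adjusted p = 0.77). It held the third rank on all 10 arrays.

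Of the whey proteins, LALBA read 14.34, 14.30, 14.20, 14.29 and 14.37 on neighboring 1 to 5 and 14.38, 14.37, 14.39, 14.35 and 14.42 on control 1 to 5. The 4 neighboring arrays of the fit lay below the 4 controls, and neighboring 5 lay among them. The group means were 14.28 ± 0.06 and 14.38 ± 0.03 (SD, n = 4), a difference of −0.09 ± 0.08 (SE, limma adjusted p = 0.40).

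PAEP read 14.71, 14.67, 14.68, 14.72 and 14.69 on neighboring 1 to 5 and 14.63, 14.64, 14.72, 14.69 and 14.68 on control 1 to 5. Its groups overlapped, and the difference of 0.04 ± 0.08 (limma adjusted p = 0.75) turned to −0.01 when each array was centred on its median. The main GLYCAM1 probe set read 14.28 to 14.37 in the neighboring group and 14.26 to 14.39 in the controls. Its difference was 0.00 ± 0.08 on the log2 scale (limma adjusted p = 0.99), and its sign changed with the arrays entered. The other GLYCAM1 sets, which the array carries among its own controls, are directed at the middle and the 5′ part of the transcript and differed by −0.05 ± 0.09 (limma adjusted p = 0.72) and 0.00 ± 0.08 (limma adjusted p = 0.99).

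**Figure D2:**
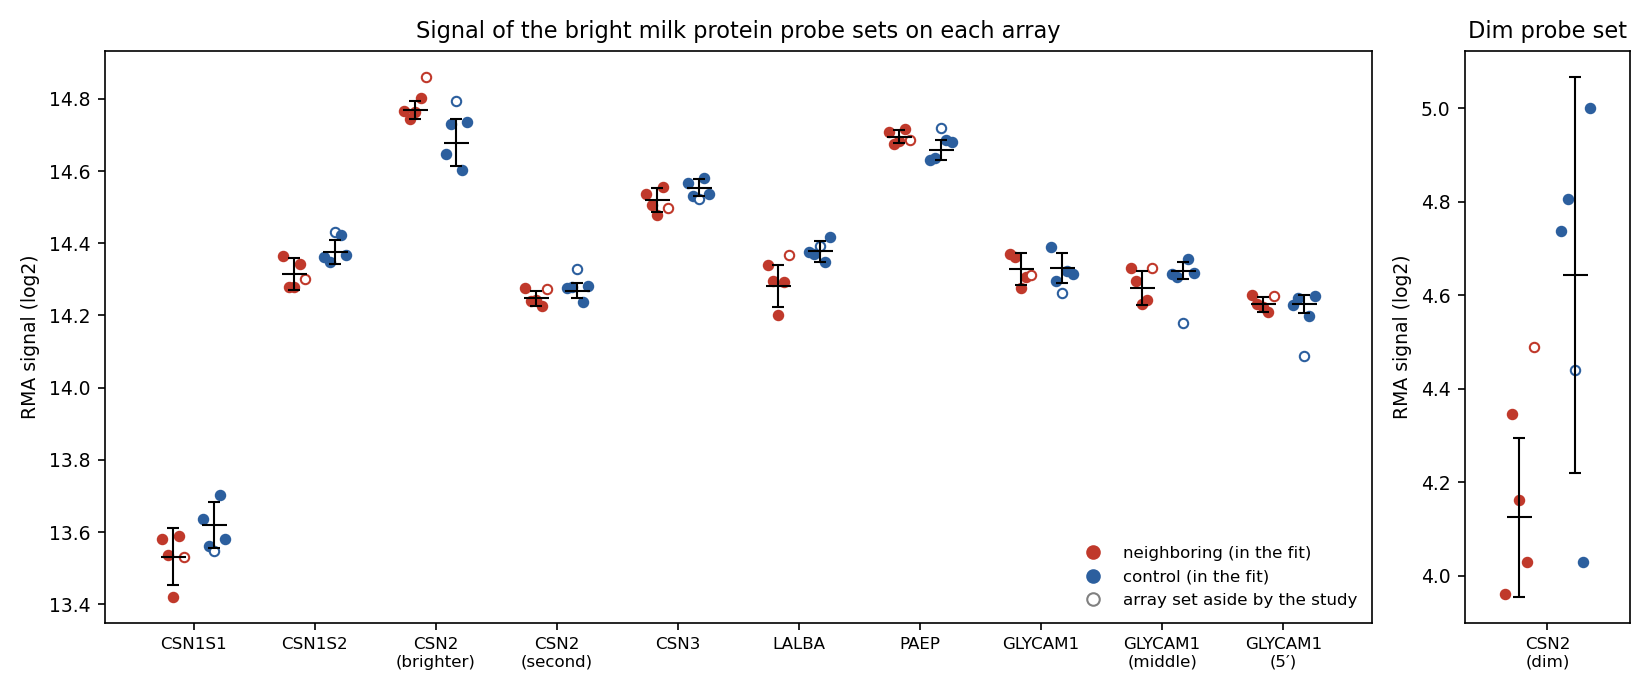
Signal (log2) of each member probe set on every array, neighboring in red and control in blue, with open points for the arrays outside the fit and bars for the mean ± SD over 4 arrays. The brighter CSN2 set is higher and LALBA lower on all 4 neighboring arrays of the fit, the open control point of CSN2 and the open neighboring point of LALBA fall within the opposite group, and the dim CSN2 set in the right panel has its own axis.

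None of the caseins and whey proteins was called different. At an adjusted p under 0.05, 0 of the 8 member probe sets kept in the test were called by limma on 8 arrays, where 29.7% of all 14409 probe sets were (17.7% higher and 12% lower), and 0 of 8 on all 10 arrays, where 12.5% were. The members' adjusted p was 0.40 to 0.99 on 8 arrays. At an unadjusted p under 0.05 the count was also 0 of 8 on 8 arrays, against 42.5% of all probe sets, and 0 of 8 on 10 arrays, against 33.1%. With a variance trend in limma, 0 of 8 were called and 29.8% of all. By the stricter rule of the study, which asks for a more than 2-fold change at an adjusted p below 0.01, 0 of 8 were called and 2.76% of all. Groups did not overlap for 2 of the 8, the brighter CSN2 set and LALBA, on the 8 arrays, where this held for 31.7% of all probe sets, and for 0 of 8 on the 10 arrays, where it held for 7.28%.

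The intervals were narrow in terms of signal. The 95% limma interval of the difference ran from −0.28 to 0.11 for CSN1S1, which corresponds to a signal between 17.8% lower and 7.76% higher in neighboring glands. It ran from 15.4% lower to 8.85% higher for CSN1S2, from 6.41% lower to 21.0% higher for the brighter CSN2 set and from 13.7% lower to 10.6% higher for CSN3. For LALBA it ran from 17.6% lower to 6.41% higher, for PAEP from 9.36% lower to 16.1% higher and for GLYCAM1 from 12.1% lower to 13.4% higher. These bounds refer to the signal on the array. They bound the change in transcript only as far as signal still followed transcript this close to the top, which was not tested. Quantile normalization also gives every array the same distribution, and the bright sets other than CSN1S1 held the top ranks on every array. A fall shared by these transcripts that left them at the top could thus leave little difference in signal. The intervals and the absence of calls cannot show or exclude such a fall.

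Spread between cows was small in the same transcripts, whose top ranks the normalization sets to similar values on every array. The residual SD of the 10 bright probe sets within groups was 0.021 to 0.071, and their whole range over the 10 arrays was 0.088 (PAEP) to 0.281 (CSN1S1). The median SD of the other kept probe sets was 0.174, and that of the 47 others with a mean of 13 or more was 0.123. None of these 47 (0) had a smaller SD than any bright member set except CSN1S1, under which 3 of them lay. Because limma draws each SD toward that of all probe sets, its SE for the bright members was 0.080 to 0.088, while their own SE was 0.015 to 0.050. With each probe set's own SD, an alternative chosen after seeing the data, the lowest adjusted p of a member was 0.084, for LALBA, and 2 of 8, the brighter CSN2 set and LALBA, had an unadjusted p under 0.05. The share of all probe sets at that limit with own SD is not given here, so the count cannot be read against it. With limma's SD the share was 42.5%.

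**Figure D3:**
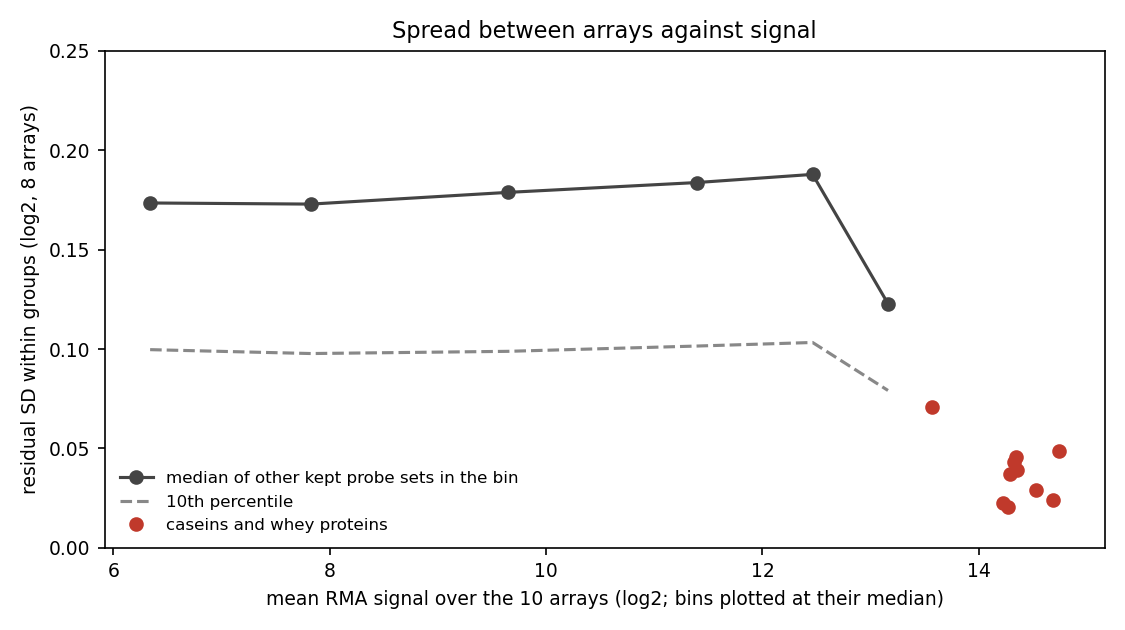
Residual SD within groups (log2, 8 arrays) against mean signal (log2), with the median and 10th percentile of the other kept probe sets per bin of signal and the 10 bright member sets as red points. The median is 0.173 to 0.188 in the bins up to a signal of 13 and 0.123 above it, and the members lie at 0.021 to 0.071.

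Differences of other bright transcripts were also few. Of the 47 other probe sets with a mean of 13 or more, 5 were called (10.6%), against 22.3% of those between 12 and 13 and 37.7% of those between 11 and 12. Of the 5, MFGE8, a protein of the milk fat globule membrane, fell by 0.70, CD36, a fatty acid transporter, fell by 0.42, and XDH, xanthine dehydrogenase, fell by 0.35. The others were PABPC1, the poly(A)-binding protein, which rose by 0.40, and TMSB10, an actin-binding peptide, which rose by 0.39. These 5 were named after their values were seen, and the calls of XDH, PABPC1 and TMSB10 were lost without some single arrays, among them neighboring 3 for each, and those of PABPC1 and TMSB10 also on all 10 arrays. Transcripts of milk fat synthesis and secretion at this signal that did not pass were BTN1A1 (−0.19), FASN (−0.16), SCD (−0.13), PLIN2 (−0.02) and FABP3 (−0.02). Changes of up to 0.70 were thus recorded at a signal of 13.28, the mean of MFGE8, 0.28 below that of CSN1S1 and at least 0.93 below those of the other 9 bright sets.

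The RNAs added before hybridization gave a second view of the top of the range. These are bioB, bioC, bioD and cre, added in rising amounts, and a difference in them is shared by the whole set on an array. The neighboring group was lower by 0.52 in bioB at a mean signal of 8.65, by 0.47 in bioC at 9.95, by 0.32 in bioD at 11.33 and by 0.12 in cre at 13.11. The difference was thus smaller at each step of signal, and the probe sets of cre ran from −0.19 to −0.06. The bright members, at 13.57 to 14.74, ran from −0.09 to 0.09. The part of signal level in the members' small differences was not tested.

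**Figure D4:**
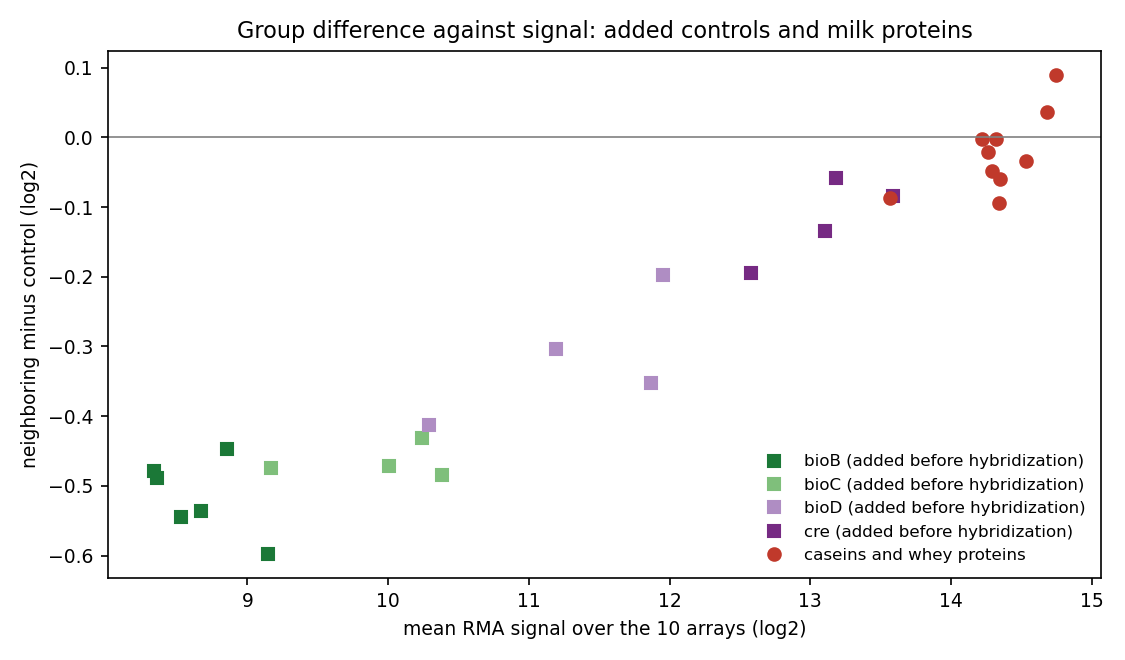
Difference between groups (neighboring minus control, log2, 4 against 4 arrays) against mean signal (log2) for the probe sets of the added RNAs (squares) and the 10 bright member sets (circles). Probe sets of the added RNAs run from −0.60 in bioB to −0.06 in cre (means −0.52 in bioB and −0.12 in cre), and the members lie around 0 at the right end.

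Members varied together in some pairs of genes and not in others over the 10 arrays. Over the 21 pairs of genes, each by its brightest probe set, Pearson's r ranged from −0.67 to 0.95 with a median of 0.13, 10 of the 21 were below 0 and 5 were over 0.5. The 6 pairs among CSN1S1, CSN1S2, CSN3 and LALBA had r from 0.44 to 0.95. The highest was that of CSN1S1 with CSN3 and the lowest that of the brighter CSN2 set with CSN3. The second CSN2 set did not share that low value, with r of −0.10 with CSN3 and 0.68 with LALBA. Between the brighter and the second CSN2 set r was 0.21. Points share the array and its normalization, and ranges of 0.088 to 0.281 leave little to correlate. The genes most like each member over the 10 arrays were ANKH (r = 0.96) and SARDH (0.95) for LALBA, NUP85 (0.95) and EXOSC2 (0.95) for PAEP, and IP6K2 (0.95) and CYP1A1 (0.93) for CSN1S2. For CSN2 they were C14H8orf76 (r = 0.87) and MYO1D (0.87), for GLYCAM1 FGD4 (0.87) and SFRS18 (0.83), for CSN1S1 ADD3 (0.83) and SYS1 (0.82), and for CSN3 LIN52 (0.82) and SPEG (0.82). They were picked from all kept probe sets for this likeness.

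The 4 casein genes are neighbors on 1 chromosome. In the RefSeq gene order of ARS-UCD2.0 the sequence is CSN1S1, CSN2, HSTN, STATH, CSN1S2, PRR27, ODAM and CSN3. Of the genes between the caseins, STATH alone had a probe set of its own symbol, with a mean signal of 7.06, and it fell by 1.26 in neighboring glands (limma adjusted p = 0.031). Next to LALBA, KANSL2 had a mean signal of 9.54 and fell by 0.75 (limma adjusted p = 0.021). Following GLYCAM1 in order, PPP1R1A and PDE1B had mean signals of 5.33 and 6.07, and PDE1B, the one kept in the test, had an adjusted p of 0.053 by limma. Under the filter on dim probe sets, SULT1E1, next to CSN1S1, had a mean signal of 1.73 and differed by 0.38. CCNT1, beyond KANSL2, had 5.16 and differed by −0.05, and PPP1R1A differed by −0.37. These genes were chosen by position, in a fit that called 31.6% of all genes. The calls of STATH and KANSL2 are given for the 8 arrays alone.

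Other proteins that pass into milk differed from the caseins and whey proteins in how often they were called. Counted by the brightest kept probe set of each gene, 1 of 11 rose and 5 fell, with a median of −0.23, beside 0 of 7 for the caseins and whey proteins, with a median of −0.03, and 31.6% of all 7055 genes (1423 rose, 808 fell, median 0.06). PIGR, the receptor that carries immunoglobulin A into milk, fell by 0.88 ± 0.24 (SE, limma adjusted p = 0.021). MFGE8 fell by 0.70 ± 0.10 (adjusted p = 0.0012 by limma), with 13.11, 12.77, 12.82, 12.80 and 13.41 on neighboring 1 to 5 and 13.52 to 13.68 in the controls. The mucin MUC1 fell by 0.66 ± 0.12 (limma adjusted p = 0.0040). LPO, lactoperoxidase, was the 1 gene that rose, by 0.51 ± 0.16 (limma adjusted p = 0.034), and is named for that reason. CEL and XDH, the other genes that fell, and LPO each lost their call without any 1 of 4 or 5 arrays, among them neighboring 3 and control 1 for each, and PIGR lost it without control 1. On all 10 arrays 0 rose and 3 fell (MFGE8, MUC1 and XDH), where 13.3% of all genes were called. The calls of PIGR, CEL and LPO were lost there. The difference between the lists itself was not tested, and the lists lay at unlike signals. PIGR, MUC1 and CEL had mean signals of 11.13, 11.56 and 6.03, and MFGE8 and XDH 13.28 and 13.12, all below the bright members.

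**Figure D5:**
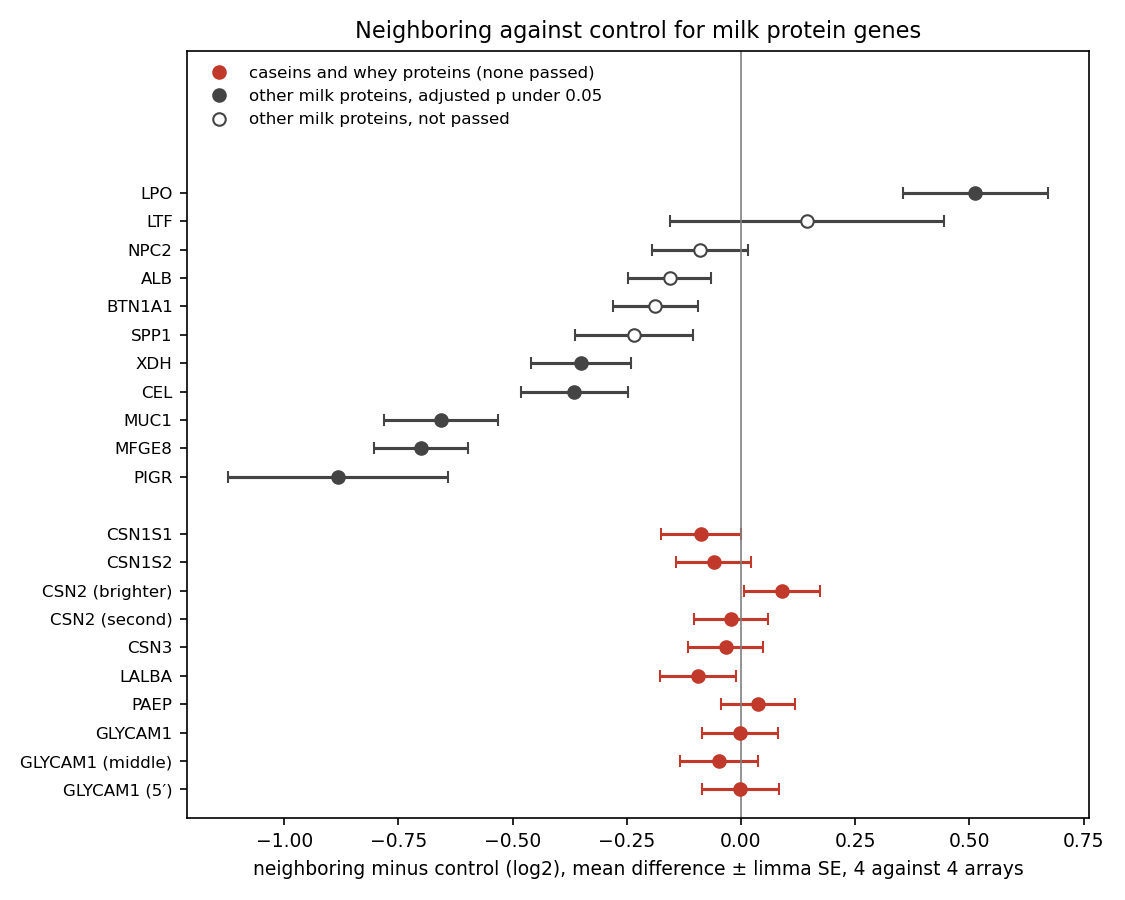
Difference between groups (neighboring minus control, log2) with limma's SE, 4 against 4 arrays, for the 10 bright member probe sets in red and the 11 other milk proteins in black, filled where the adjusted p was under 0.05. Members lie between −0.09 and 0.09, and the other milk proteins run from −0.88 for PIGR to 0.51 for LPO.

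Of the receptors, signalling proteins and transcription factors that act on milk protein genes, 0 rose and 2 fell of 14 kept in the test. Their median was 0.11, and of all genes 31.6% were called. NR3C1, the glucocorticoid receptor, read 6.99, 7.55, 7.52, 7.17 and 7.87 on neighboring 1 to 5 and 8.26, 7.63, 7.87, 8.53 and 8.24 on control 1 to 5. Neighboring 1 to 4 lay below every control and neighboring 5 among them, and NR3C1 fell by 0.86 ± 0.19 (limma adjusted p = 0.0093, 0.043 on 10 arrays). CISH, a cytokine-signalling inhibitor that STAT5 induces, fell by 0.46 ± 0.14 (limma adjusted p = 0.029), a call that was lost without control 2, control 4 or control 5 and on 10 arrays. PRLR, the prolactin receptor, differed by 0.87 ± 0.32 and did not pass (limma adjusted p = 0.062). ELF5, a transcription factor of alveolar cells with a mean signal of 13.29, differed by −0.11 ± 0.10 (limma adjusted p = 0.38), and STAT5B by 0.15 ± 0.28 (limma adjusted p = 0.70). STAT5A had no probe set under its symbol.

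In lactose synthesis, in which LALBA takes part, 1 of 7 genes rose and 0 fell, beside 31.6% of all genes called. The median was 0.04, which was −0.05 on 10 arrays. B4GALT1, the enzyme that LALBA modifies, had a mean signal of 12.78 and differed by 0.02 ± 0.11 (limma adjusted p = 0.92). HK1, a hexokinase, rose by 0.42 ± 0.12 (limma adjusted p = 0.028), a call that was lost on 10 arrays and without any 1 of 5 arrays, among them neighboring 3.

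Of the genes that translocate, modify and export caseins or supply their minerals, 1 of 17 rose and 4 fell (29.4%), near the 31.6% of all genes. Their median was −0.18. On 10 arrays 1 rose and 2 fell, where 13.3% of all genes were called, and the median had the opposite sign, 0.07. SLC34A2, a sodium phosphate cotransporter, read 7.28, 6.43, 6.17, 6.40 and 7.89 on neighboring 1 to 5 and 7.84, 7.86, 8.55, 7.39 and 8.12 on control 1 to 5. Neighboring 1 to 4 lay below all controls and neighboring 5 did not, and SLC34A2 fell by 1.23 ± 0.23 (limma adjusted p = 0.0039, 0.043 on 10 arrays). SEC11A, a catalytic subunit of the signal peptidase that trims new secretory proteins, rose by 0.89 ± 0.11 (limma adjusted p = 0.00045), and SEC61B, of the translocon in the endoplasmic reticulum, fell by 0.53 ± 0.15 (limma adjusted p = 0.025), which was lost without control 2 or control 5 and on 10 arrays. SPCS1, another subunit of the signal peptidase, and SSR1, of the translocon-associated complex, were the others that fell. FAM20C, the kinase that phosphorylates caseins, had no probe set under its symbol.

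Some markers of cell types were called as well, in a fit that called 31.6% of all genes. In whole tissue, fewer cells of a type and less RNA per cell cannot be told apart. Of the markers of luminal epithelium, which makes the caseins and whey proteins, 4 of 9 rose and 0 fell (median 0.66). KRT19 rose by 1.10, EPCAM by 0.72 and CLDN3 by 0.71, KRT18 differed by 0.77 ± 0.34 (limma adjusted p = 0.11), and KRT8, under the filter on dim probe sets, by 0.50 ± 0.17 (limma adjusted p = 0.063). On all 10 arrays the calls of KRT19 and CLDN3 were lost (limma adjusted p = 0.077 and 0.064). The mean signal of the kept luminal markers was 9.43 to 9.69 on the neighboring arrays of the fit and 8.90 to 9.18 on the controls, and 9.09 on neighboring 5. The caseins and whey proteins had a mean signal of 14.30 to 14.38 and 14.35 to 14.38 on the same arrays.

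Of the myoepithelium markers 0 of 8 rose and 5 fell, among them OXTR, the oxytocin receptor (−1.24), TAGLN (−0.89) and MYH11 (−0.85), with mean signals of 8.94 to 9.34 against 9.60 to 10.14. Of the fibroblast markers 1 of 7 rose and 4 fell, among them LUM (−1.72), COL3A1 (−0.95) and FBN1 (−0.79), with 8.80 to 9.55 against 9.70 to 10.17. Of the adipocyte markers 0 of 2 rose and FABP4 fell by 1.10, and their mean signals were 9.34 to 9.60 and 9.69 to 10.12. The other marker, LIPE, differed by 0.28, in the opposite direction, and did not pass (limma adjusted p = 0.10). The lower mean of this list thus came from FABP4 alone. These counts stand beside 31.6% of all genes called.

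Of the leukocyte markers 0 of 6 rose and 3 fell, CD3E by 0.75, CD2 by 0.52 and CD3D by 0.50, with mean signals of 6.88 to 7.15 and 7.18 to 7.51. These 3 are T cell genes. PTPRC (−0.29), CD68 (0.10) and CSF1R (−0.07) did not pass (limma adjusted p = 0.17, 0.72 and 0.74). CSF3R and CXCR2 had no probe set under their symbols, so the calls do not speak for leukocytes as a whole. Endothelium markers had 0 of 3 called and mean signals of 7.95 to 8.35 and 8.05 to 8.44. Of all genes, 31.6% were called. The calls of TAGLN, COL3A1, CD3D and ACTA2, a myoepithelium marker that fell, were lost without control 1 or some other single arrays. That of PDGFRA, the fibroblast marker that rose, was lost without neighboring 3. On all 10 arrays, where 13.3% of all genes were called, 2 luminal markers (EPCAM and ESRP1) and 1 fibroblast marker rose. There 3 myoepithelium, 5 fibroblast, 0 adipocyte and 0 leukocyte markers fell. With the added hybridization RNAs as a covariate, the calls of SEC11A, OXTR and LUM remained among the genes called in all these lists (limma adjusted p = 0.049, 0.030 and 0.030) and the others were lost. This covariate did not overlap between the groups of the fit, so the lost calls do not tell hybridization from group. No marker was listed at 0. Their part in the levels of the caseins and whey proteins was not tested.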

How the data were processed

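TRIzol-extracted RNA was amplified and biotin-labelled (MessageAmp II) for the Bovine Genome Array of Affymetrix. The values that the authors deposited are log2 signals from RMA (background correction, quantile normalization over arrays, summary over probes). The RMA version is not given in the sources used. Quantile normalization gives all arrays the same distribution. This hides any shift common to most transcripts and limits what can be seen of a shift shared by the brightest ones.

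Arrays were grouped by their titles. The number of arrays limits the precision. The 112 array control probe sets were left out, except 2 of GLYCAM1 and the added hybridization RNAs. The study filtered by present calls; here the dimmest 40% by their mean over 10 arrays (under 5.71) were left out, which kept 14409. Values of the 3 members outside these (the dim CSN2 set and both GLYCAM1 controls) come from a fit without the filter. Differences were tested with limma 3.58.1 in R 4.3.3 (lmFit, eBayes, two-sided, Benjamini-Hochberg over all kept probe sets), on 8 arrays and again on 10. Each adjusted p in the text is limma's, and SE is its moderated standard error unless called own.

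Members and lists were chosen with earlier results of these data known. Named were all members, STAT5A, STAT5B, PRLR, ELF5, NR3C1, B4GALT1, FAM20C, KRT8 and KRT18, up to 3 called genes with the largest change per list, and per member the 2 genes with the highest r. A gene was counted by its brightest probe set. Alternatives covered the arrays entered, array weights, the filter, scaling, the variance model, the replicate number as a block, the hybridization RNAs as a covariate, the probe set per gene and each array in turn.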

Additional observations from a re-analysis of the deposited data

Results flagged for a closer look

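The middle probe set of GLYCAM1 on control 3 was 14.18, while the other 4 controls lay between 14.31 and 14.36. Its gap to the nearest control was 0.715 of the range of the group, above the limit of 0.71 for 5 samples. Of the 34 groups examined this was the 1 that passed, and chance alone passes about 1 in 20. Control 3 is the array that the study set aside as a technical outlier, and it stood outside the fit.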

How the results depend on the processing

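Over all alternatives, 214 of 234 recomputed member differences kept their sign and their side of the threshold. No kept member was called under any of them (0 of 8 at an adjusted p under 0.05), and the largest change of a bright probe set was 0.147. The differences that changed sign were close to 0, except that of the dim CSN2 set. GLYCAM1 was 0.0083 on all 10 arrays, 0.011 with control 3 put back, 0.010 with the replicate block and 0.033 with the hybridization RNAs as a covariate, and −0.016 to 0.018 when 1 array was left out. Its 5′ probe set was 0.032 on all 10 arrays, 0.0031 with neighboring 5 put back, 0.027 with control 3 put back, 0.011 with array weights, 0.0083 with the replicate block, 0.011 with the covariate and −0.013 to 0.0056 with 1 array left out. PAEP was −0.014 after median centring. The dim CSN2 set was 0.095 with the covariate and ranged from −0.72 to −0.40 with 1 array left out, passing without control 4 (limma adjusted p = 0.0067).

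Calls over all probe sets moved more. Those at an adjusted p under 0.05 numbered 4283 on 8 arrays, 1806 on all 10, 1190 with neighboring 5 put back, 163 with the covariate and 2996 to 4250 with 1 array left out. At the thresholds of the study the 398 calls became 15, 4 and 17 in the same order, 133 with each probe set's own SD and 326 to 458 with 1 array left out. With own SD, 2 of 8 members had an unadjusted p under 0.05, a count without the share of all probe sets beside it (42.5% with limma's SD). The cause of these changes was not tested. In the fit the covariate did not overlap between the groups, so its part and that of the group cannot be told apart. The replicate numbers share only a number: deviations of same-numbered arrays correlated at −0.026, −0.026 and −0.049 (pairs 1, 2 and 4). With the replicate block the calls were 1481 and, at the thresholds of the study, 119, on fewer residual degrees of freedom.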
